A study of Mus musculus with 6 samples.

Results

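The genes described here encode the enzymes that write DNA methylation, the enzymes and adaptor proteins that act in its removal, and a protein that binds it. They are 10 genes out of 37273 genes of the mm9 annotation, chosen by name and not by a measured value, although earlier results of these data were known. The 10 are the DNA methyltransferases Dnmt1, Dnmt3a and Dnmt3b, the methylcytosine dioxygenases Tet1, Tet2 and Tet3, the adaptors Gadd45a, Gadd45b and Gadd45g, and the methyl-CpG binding protein Mbd1. Acetylation of lysine 5 of histone H4 (H4K5ac) was measured over these genes by ChIP-Seq in the hippocampus of C57/BL6 mice of 6 months. Mice of the fear-conditioned group (FC) received foot shocks in a context and were later returned to it for a memory test. For the context-only control group (CON) the foot shock was left out, so that both groups had explored the context and been tested in it. No mice kept in the home cage are among the samples. For each of the 2 groups there was 1 library of chromatin precipitated with an antibody to H4K5ac (H4K5ac-ChIP), 1 precipitated with IgG as a mock control (IgG-IP) and 1 of DNA before precipitation (input), 6 libraries in all. Several hippocampi per group were cross-linked separately and libraries were pooled after size selection, but which samples each of the 6 libraries holds is not given in the sources used here. There are therefore no replicates, no difference was tested, and each interval given is a 95% interval that covers counting error only.

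Methylation of cytosine in CpG dinucleotides is copied to the daughter strand by Dnmt1 and placed on unmethylated DNA by Dnmt3a and Dnmt3b. Tet proteins oxidize methylcytosine, and the oxidized bases are removed by base excision repair, a process in which Gadd45 proteins have been described as adaptors. Mbd1 binds methylated CpG and is known as a repressor of transcription. In the adult hippocampus, neurons carry much Dnmt3a, Gadd45b is an activity-induced gene, and mutants of several of these genes are used in studies of memory. Histone acetylation is found at the promoters and over the bodies of transcribed genes, and the study reports H4K5ac in many intergenic regions as well.

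The starts of these genes differ in the very sequence that their products act on. In the 300 bases around the annotated gene start (250 upstream and 50 downstream) the number of CpG dinucleotides ran from 2 in Dnmt3a and 5 in Tet1, through 12 in Gadd45a, 21 in Dnmt1, 22 in Tet3, 22 in Gadd45g, 24 in Gadd45b, 29 in Mbd1 and 31 in Dnmt3b, to 57 in Tet2. The median was 6 over all genes and 11 over protein-coding genes. The 250 bases upstream of 5 starts are given 5′ to 3′ on the strand of the gene, with each CpG in capitals, because the reads at these starts are compared later. Dnmt3a has 3 of them: its first annotated start, the start of its full-length coding transcripts 1.02 kb further downstream, and an internal start 85.72 kb downstream, from which 2 of its shorter coding transcripts begin. All were read from the NCBIM37 (mm9) genome, and none overlaps an annotated exon.
Dnmt3a, first start, plus strand of chr12:3805757-3806006: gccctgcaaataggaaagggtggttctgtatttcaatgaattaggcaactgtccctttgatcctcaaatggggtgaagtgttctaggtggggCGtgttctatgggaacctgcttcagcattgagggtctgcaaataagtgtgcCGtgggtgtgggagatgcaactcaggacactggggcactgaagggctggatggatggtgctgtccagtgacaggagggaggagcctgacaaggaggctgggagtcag
Dnmt3a, full-length coding start, plus strand of chr12:3806780-3807029: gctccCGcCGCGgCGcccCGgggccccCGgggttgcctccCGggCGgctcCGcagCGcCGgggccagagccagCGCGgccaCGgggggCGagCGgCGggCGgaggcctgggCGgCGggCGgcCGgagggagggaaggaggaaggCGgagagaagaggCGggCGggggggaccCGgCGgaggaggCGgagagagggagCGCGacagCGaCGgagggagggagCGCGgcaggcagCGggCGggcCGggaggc
Dnmt3a, internal start, plus strand of chr12:3891478-3891727: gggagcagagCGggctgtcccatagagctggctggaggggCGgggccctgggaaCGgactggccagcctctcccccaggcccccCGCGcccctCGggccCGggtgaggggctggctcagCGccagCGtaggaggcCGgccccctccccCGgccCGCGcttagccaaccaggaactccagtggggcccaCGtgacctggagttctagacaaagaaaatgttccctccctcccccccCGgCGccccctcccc
Tet1, minus strand of chr10:62361867-62362116: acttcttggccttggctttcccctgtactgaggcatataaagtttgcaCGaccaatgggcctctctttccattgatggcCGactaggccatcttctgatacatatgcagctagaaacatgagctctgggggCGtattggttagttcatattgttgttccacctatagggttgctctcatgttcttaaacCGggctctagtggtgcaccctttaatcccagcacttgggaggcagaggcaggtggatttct
Tet2, minus strand of chr3:133207355-133207604: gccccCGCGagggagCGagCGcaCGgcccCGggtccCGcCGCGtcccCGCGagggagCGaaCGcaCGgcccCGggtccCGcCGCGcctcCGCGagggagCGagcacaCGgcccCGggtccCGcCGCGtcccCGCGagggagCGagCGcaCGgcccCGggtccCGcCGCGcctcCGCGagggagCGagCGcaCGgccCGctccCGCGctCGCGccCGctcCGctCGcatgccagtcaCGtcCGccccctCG

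The stretches upstream of the full-length Dnmt3a start and of the Tet2 start held 37 and 51 CpG, against 2 and 4 upstream of the first Dnmt3a start and of the Tet1 start, and 16 upstream of the internal Dnmt3a start. The cAMP response element TGACGTCA, searched on both strands of the 300 bases, was found at none of the 10 starts, at 1.61% of all starts and at 2.32% of those of protein-coding genes, to which all 10 genes belong. The shorter TGACG, which is also part of the whole element, was found at Tet2 only, against 18.6% of all and 23.3% of protein-coding starts. The GC box GGGCGG was found at Dnmt1, Dnmt3b, Tet2, Tet3, Gadd45a and Gadd45b, up to 4 times in Dnmt3b, against 30.4% of all and 43.4% of protein-coding starts.

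Reads were counted over the gene body (the CDS in the terms of the study, from TSS to TTS with introns), over the promoter (5 kb upstream of the TSS) and over the TSS region (1 kb on either side of the TSS), and given as reads per kilobase and 1000000 aligned reads (RPKM). The 6 libraries held between 14549689 reads (IgG-IP of FC) and 45673239 reads (input of FC), and 11.5 to 17.8% of the reads of a library shared their 5′ position and strand with an earlier one. The ratio of FC to CON input reads followed the GC content of the gene, with a Spearman's rho of 0.77 over 27144 gene bodies, and so did the H4K5ac-ChIP/IgG-IP ratio, with a rho of 0.59 in FC and 0.49 in CON. For H4K5ac-ChIP/input the rho was 0.08 in FC and 0.42 in CON, and for FC to CON H4K5ac-ChIP reads it was 0.34. Genes are not independent replicates and share these libraries, so these values are descriptions. Neither control is thus free of a relation to GC content, and ratios to both are given. In a tissue homogenate a mark on a larger share of cells and more of it per cell cannot be told apart. By gene body ratio to IgG-IP in FC (log2), the 5 neuronal markers ran from -0.81 (Neurod6) to 1.31 (Camk2a), the 3 astrocyte markers from -0.10 (Aqp4) to 0.96 (Gfap) and the 3 oligodendrocyte markers from 1.10 (Mog) to 1.81 (Mbp). The 3 markers of microglia and vessels ran from 0.88 to 1.61 and the cerebellar markers Gabra6 and Pcp2 stood at -0.71 and 1.00, whereas the 5 genes of other tissues ran from -1.04 (Alb, of liver) to 0.98 (Myh6, of heart). Over input in FC the neuronal markers ran from -0.81 to 0.55, the astrocyte markers from -0.28 to 0.63 and the oligodendrocyte markers from 0.64 to 1.06. Those of microglia and vessels ran from -0.47 to 0.60, of cerebellum from -0.20 to 0.08 and of other tissues from -1.12 to -0.05.

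The H4K5ac-ChIP level of the 10 gene bodies ran from 0.436 to 1.18 RPKM in FC, with Dnmt3a and Tet3 at the top and Dnmt3b at the bottom in both groups. That of Dnmt3a was 1.18 RPKM (1.14 to 1.21) in FC and 1.03 RPKM (0.998 to 1.06) in CON. Tet3 followed with 0.965 RPKM (0.927 to 1.00) in FC and 0.966 RPKM (0.931 to 1.00) in CON. These levels were higher than those of 94.8% of all genes for Dnmt3a and 89.3% for Tet3 in FC. Tet1 at 0.685 RPKM, Mbd1 at 0.652 and Dnmt1 at 0.644 came next in FC and had overlapping intervals, as did Tet2 at 0.570, Gadd45b at 0.569 and Gadd45a at 0.522. Gadd45g stood at 0.866 RPKM (0.640 to 1.14) in FC and 0.450 RPKM (0.302 to 0.647) in CON, which placed it above Tet1 in FC and below Gadd45a in CON. Dnmt3b had the lowest level, 0.436 RPKM (0.400 to 0.475) in FC and 0.383 RPKM (0.351 to 0.417) in CON. Over all genes the median level was 0.483 RPKM in FC and 0.471 RPKM in CON.

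**Figure D1:**
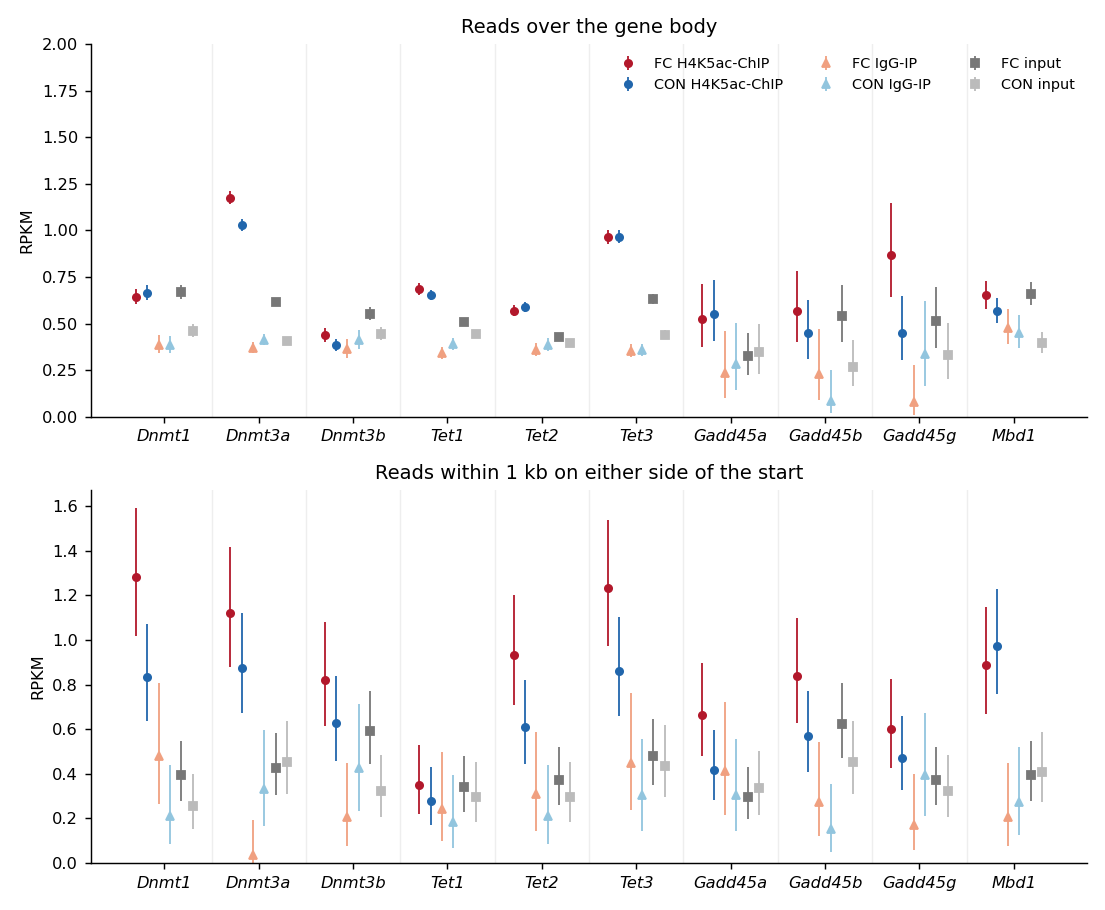
RPKM of the 10 genes in each of the 6 libraries, over the gene body (top) and within 1 kb of the gene start (bottom); points are single libraries and bars are exact Poisson 95% intervals. Over the gene body the H4K5ac-ChIP points of Dnmt3a (1.18 and 1.03) and Tet3 (0.965 and 0.966) lie above all 4 control points of the same gene, those of Dnmt3b (0.436 and 0.383) lie among them, and the 3 short Gadd45 genes have wide bars.

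Among the methyltransferases, H4K5ac was high over Dnmt3a, intermediate over Dnmt1 and at the level of the controls over Dnmt3b. Dnmt3a (108.4 kb on the plus strand of chromosome 12, 3806007 to 3914443) held 4027 (FC) and 4014 (CON) H4K5ac-ChIP reads, 582 and 739 IgG-IP reads, and 3039 and 1572 input reads. On the log2 scale this put H4K5ac-ChIP at 1.67 (1.55 to 1.80) in FC and 1.32 (1.20 to 1.43) in CON relative to IgG-IP, and relative to input at 0.94 (0.87 to 1.01) and 1.33 (1.25 to 1.42). All 4 ratios lay at percentile 87.9 of all genes or higher, and above the median of GC-matched genes, a comparison chosen after the data had been seen, by 0.53, 0.38, 0.74 and 0.59. Dnmt1, the maintenance enzyme (45.7 kb on the minus strand of chromosome 9, 20711650 to 20757317), held 930, 1092, 257, 290, 1394 and 748 reads in the same order of libraries. Relative to IgG-IP it stood at 0.74 (0.54 to 0.94) in FC and 0.79 (0.60 to 0.98) in CON, and relative to input at -0.05 (-0.17 to 0.07) and 0.53 (0.39 to 0.66). Both groups thus stood near the median of all genes over IgG-IP, which was 0.69 in FC and 0.59 in CON, and at -0.35 and -0.06 relative to that of GC-matched genes. Dnmt3b, the other enzyme that methylates unmodified DNA (38.3 kb on the plus strand of chromosome 2, 153475186 to 153513466), held 528, 527, 203, 260, 964 and 605 reads. Its ratios were 0.26 (0.02 to 0.50) and -0.11 (-0.32 to 0.11) over IgG-IP and -0.34 (-0.49 to -0.18) and -0.22 (-0.39 to -0.05) over input, and -0.57 and -0.78 over IgG-IP less the median of GC-matched genes. The order Dnmt3a, Dnmt1, Dnmt3b was the same with either control in both groups, and no pair of intervals within a group and control overlapped.

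Upstream of their starts the methyltransferases kept this order less clearly. The 5 kb promoter of Dnmt3a stood at 1.15 RPKM in FC and 1.06 RPKM in CON, or 1.74 (1.14 to 2.41) and 0.99 (0.51 to 1.49) over IgG-IP. The promoter of Dnmt1 stood at 0.867 and 0.612 RPKM, or 1.07 (0.49 to 1.69) and 0.75 (0.16 to 1.38) over IgG-IP. The promoter of Dnmt3b stood at 0.563 and 0.467 RPKM, or 0.50 (-0.12 to 1.16) and 0.57 (-0.08 to 1.26). The intervals of the 3 promoters over IgG-IP overlapped in both groups. Over input Dnmt1 was above Dnmt3a in FC, at 1.09 (0.70 to 1.49) against 0.84 (0.52 to 1.16), and below it in CON, at 0.61 (0.17 to 1.06) against 1.16 (0.78 to 1.55), with overlapping intervals. Dnmt3b stood at -0.03 (-0.43 to 0.37) and 0.03 (-0.42 to 0.49) over input, with an interval apart from both in FC and from that of Dnmt3a in CON. Within 1 kb of the start Dnmt1 was marked over both controls, by 1.41 (0.58 to 2.35) in FC and 1.97 (0.84 to 3.35) in CON over IgG-IP and by 1.70 (1.12 to 2.31) and 1.72 (0.94 to 2.57) over input; less the GC-matched median the values over IgG-IP were -0.20 and 0.65. Dnmt3b stood at 2.00 (0.78 to 3.51) and 0.56 (-0.33 to 1.54) over IgG-IP there, and at 0.48 (-0.10 to 1.05) and 0.95 (0.19 to 1.74) over input. The corresponding Dnmt3a ratio over IgG-IP in FC, 5.03 (2.51 to 10.35), rests on 1 IgG-IP read against 71 H4K5ac-ChIP reads, and over input it was 1.40 (0.81 to 2.00). In CON the Dnmt3a start stood at 1.39 (0.46 to 2.47) over IgG-IP, on 11 IgG-IP reads, and at 0.96 (0.32 to 1.62) over input. The start of Dnmt3b is overlapped by the antisense transcript 7530422B04Rik, and the body of Dnmt3a by Gm10485 over 2.952 kb; ChIP reads cannot be assigned to one of the overlapping genes.

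Over the gene body the Tet genes separated in the same manner, with Tet3 above Tet1 and Tet2. Within 1 kb of the start Tet1 had the lowest ratios, but there the intervals of all Tet genes overlapped with either control in both groups. Tet3 (79.3 kb on the minus strand of chromosome 6, 83312367 to 83391672) held 2419 (FC) and 2756 (CON) H4K5ac-ChIP reads, 409 and 469 IgG-IP reads and 2281 and 1240 input reads. Its gene body stood at 1.45 (1.29 to 1.60) in FC and 1.43 (1.29 to 1.57) in CON over IgG-IP, and 0.62 (0.53 to 0.70) and 1.13 (1.04 to 1.23) over input. Tet1 (94.5 kb on the minus strand of chromosome 10, 62267318 to 62361866) held 2047, 2218, 470, 606, 2199 and 1492 reads in the same order of libraries. Relative to IgG-IP it stood at 1.00 (0.86 to 1.15) in FC, just past the 2-fold limit, and at 0.75 (0.62 to 0.88) in CON. Tet2 (80.7 kb on the minus strand of chromosome 3, 133126643 to 133207354) held 1453, 1707, 423, 514, 1572 and 1132 reads, for ratios of 0.66 (0.50 to 0.82) and 0.61 (0.46 to 0.75). Over input Tet1 stood at 0.43 (0.34 to 0.52) in FC and 0.55 (0.46 to 0.65) in CON. Tet2 stood at 0.42 (0.31 to 0.52) and 0.57 (0.46 to 0.68) over input. The interval of Tet3 lay above those of Tet1 and Tet2 in both groups and with either control, though narrowly over input in FC. The intervals of Tet1 and Tet2 were apart from each other only over IgG-IP in FC. Less the median of GC-matched genes the gene body ratios over IgG-IP were 0.52 and 0.66 for Tet3, 0.40 and 0.23 for Tet1, and 0.40 and 0.32 for Tet2.

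The promoter of Tet3 had the highest H4K5ac-ChIP level of the 10, 1.53 RPKM in FC and 1.30 RPKM in CON, higher than 99.5% and 99.1% of all promoters. Its ratio was 1.99 (1.42 to 2.61) and 1.84 (1.29 to 2.44) over IgG-IP and 1.15 (0.85 to 1.45) and 1.62 (1.24 to 2.02) over input. Over 4.924 kb of these 5 kb lies the lincRNA B230319C09Rik on the opposite strand, so that reads of one cannot be separated from reads of the other. In contrast, the promoter of Tet1 was at the level of the controls, with 0.304 RPKM in FC and 0.256 RPKM in CON, or 0.01 (-0.75 to 0.81) and -0.46 (-1.16 to 0.26) over IgG-IP. Over input it stood at -0.63 (-1.15 to -0.12) and -0.54 (-1.12 to 0.03). The promoter of Tet2 stood between them at 0.589 and 0.545 RPKM, or 0.67 (0.03 to 1.34) and 0.79 (0.15 to 1.47) over IgG-IP. Its interval over IgG-IP overlapped that of Tet1 in both groups and that of Tet3 in CON. Over input it was apart from that of Tet1 and overlapped that of Tet3 in both groups.

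The Gadd45 genes are short and their gene bodies held few reads, so their levels are uncertain. Gadd45a (2.362 kb, chromosome 6, 66985090 to 66987451) held 39 and 47 H4K5ac-ChIP reads in FC and CON, 8 and 11 IgG-IP reads and 35 and 29 input reads. Gadd45b (2.114 kb, chromosome 10, 80392836 to 80394949) held 38 and 34, 7 and 3, and 52 and 20 reads. Gadd45g (1.791 kb, chromosome 13, 51942047 to 51943837) held 49 and 29, 2 and 10, and 42 and 21 reads. H4K5ac-ChIP was above IgG-IP in each of the 6 pairs, by 1.17 and 0.97 in Gadd45a, 1.32 and 2.38 in Gadd45b and 3.50 (1.57 to 6.58) and 0.41 (-0.67 to 1.61) in Gadd45g, but no interval of one Gadd45 gene was apart from that of another. The value of Gadd45g in FC rests on 2 IgG-IP reads, and over input it was 0.75 (0.13 to 1.38). In CON the Gadd45g body stood at 0.45 over input. The Gadd45b body stood at 0.08 over input in FC and at 0.75 in CON, and that of Gadd45a at 0.69 and 0.68. The 5 kb promoters, with more reads, gave steadier values: 1.57 (0.88 to 2.33) and 1.71 (0.99 to 2.51) over IgG-IP for Gadd45b, 0.95 (0.33 to 1.61) and 1.10 (0.49 to 1.75) for Gadd45g, and 0.45 (-0.20 to 1.13) and 0.80, with a lower bound of 0.15, for Gadd45a. Over input the Gadd45b promoter stood at 0.42 (0.07 to 0.78) and 0.85 (0.42 to 1.29), that of Gadd45a at 0.48 (0.02 to 0.94) and 0.11 (-0.33 to 0.54), and that of Gadd45g at 0.31 (-0.07 to 0.68) and 0.83 (0.40 to 1.27). Gadd45b was thus not highest over input in FC, and with either control the intervals overlapped. The whole promoter of Gadd45a and 0.859 kb of its gene body are overlapped by the lincRNA E230016M11Rik on the opposite strand. Reads of one cannot be separated there from reads of the other.

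Over Mbd1 the ratios were higher around the start than over the gene body as a whole. Cut into 5 equal parts from start to end, its first part stood at 0.66 (log2) over input in FC and 0.47 in CON. The later parts ran from -0.50 to 0.08 over input in FC and from -0.02 to 0.82 in CON. Over IgG-IP the first part stood at 0.92 in FC and 0.42 in CON. The later parts ran from -0.04 to 0.78 in FC and from -0.12 to 0.82 in CON over IgG-IP. In CON the first part thus lay within the range of the later ones with either control. Mbd1 (14.4 kb, chromosome 18, 74427926 to 74442339) held 297 and 294 H4K5ac-ChIP reads over the gene body in FC and CON, 100 and 107 IgG-IP reads and 433 and 202 input reads. Its gene body ratio was 0.45 (0.12 to 0.79) and 0.33 (0.01 to 0.67) over IgG-IP, below the median of all genes, and -0.38 and -0.34 relative to that of GC-matched genes. Within 1 kb of the start the FC value was 2.10 (0.89 to 3.61) and the CON value 1.83 (0.83 to 3.02) over IgG-IP, and 1.17 (0.54 to 1.81) and 1.25 (0.61 to 1.93) over input, with 0.57 and 0.66 over IgG-IP less the GC-matched median. The first kb downstream of the start held the most H4K5ac-ChIP reads of any 1 kb window of the locus, 40 in FC and 42 in CON, against 4 and 6 IgG-IP reads and 32 and 21 input reads. Its promoter cannot be compared with the others, since the 4 windows from 5 to 1 kb upstream held between 0 and 5 reads in each of the 6 libraries. The 2 input libraries together held 37 reads in this promoter, a number that only 5.30% of all promoters did not exceed, although the reference sequence there has no undetermined base.

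The 10 genes were then counted together. Over the gene body, 6 of 10 were at least 2-fold over IgG-IP in FC (Dnmt3a, Tet1, Tet3 and the 3 Gadd45 genes) and 3 of 10 in CON (Dnmt3a, Tet3 and Gadd45b), against 33.6% and 25.5% of all genes with at least 20 reads in both libraries together (33.5% and 25.1% of protein-coding genes). With the first 2 kb left out, the counts were 3 and 2 of the 7 genes other than Gadd45, against 29.7% and 22.5%. Over input the counts were 0 of 10 in FC and 2 of 10 in CON, against 5.08% and 15.3%. Over the promoter, 4 of 10 passed 2-fold over IgG-IP in FC (Dnmt1, Dnmt3a, Tet3 and Gadd45b) and 4 in CON (Tet3, Gadd45b, Gadd45g and Mbd1, the last on 3 IgG-IP reads), against 30.4% and 24.6% (protein-coding, 35.8% and 29.2%), and 2 of 10 in each group over input, against 7.95% and 16.3%. With a promoter of 2 kb the counts over IgG-IP were 8 and 6, against 44.5% and 37.5%. Over the TSS region 8 of 10 passed over IgG-IP in FC and 6 of 10 in CON, against 51% and 42.3% (protein-coding, 61.1% and 51.4%), and 6 and 3 of 10 over input, against 20.3% and 31.3%. The median ratio over IgG-IP at the TSS region was 1.60 in FC and 1.45 in CON for the 10 genes, and 1.04 and 0.78 for all genes. More than 50 H4K5ac-ChIP reads lay in the promoter of 8 of 10 genes in each group, all but Tet1 and Mbd1, against 65% of all promoters in FC and 68.1% in CON. Set against GC-matched genes, 1 of 10 gene bodies in each group was 2-fold above the median over IgG-IP, Gadd45g in FC and Gadd45b in CON, both on few IgG-IP reads, against 4.64% and 3.95% of all genes. Over the promoter that count was 0 in FC and 1 in CON (Mbd1, on the 3 IgG-IP reads named above), against 10.8% and 9.63%. Over the TSS region it was 1 (Dnmt3a, on 1 IgG-IP read) and 0, against 16.5% and 14.4%.

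**Figure D2:**
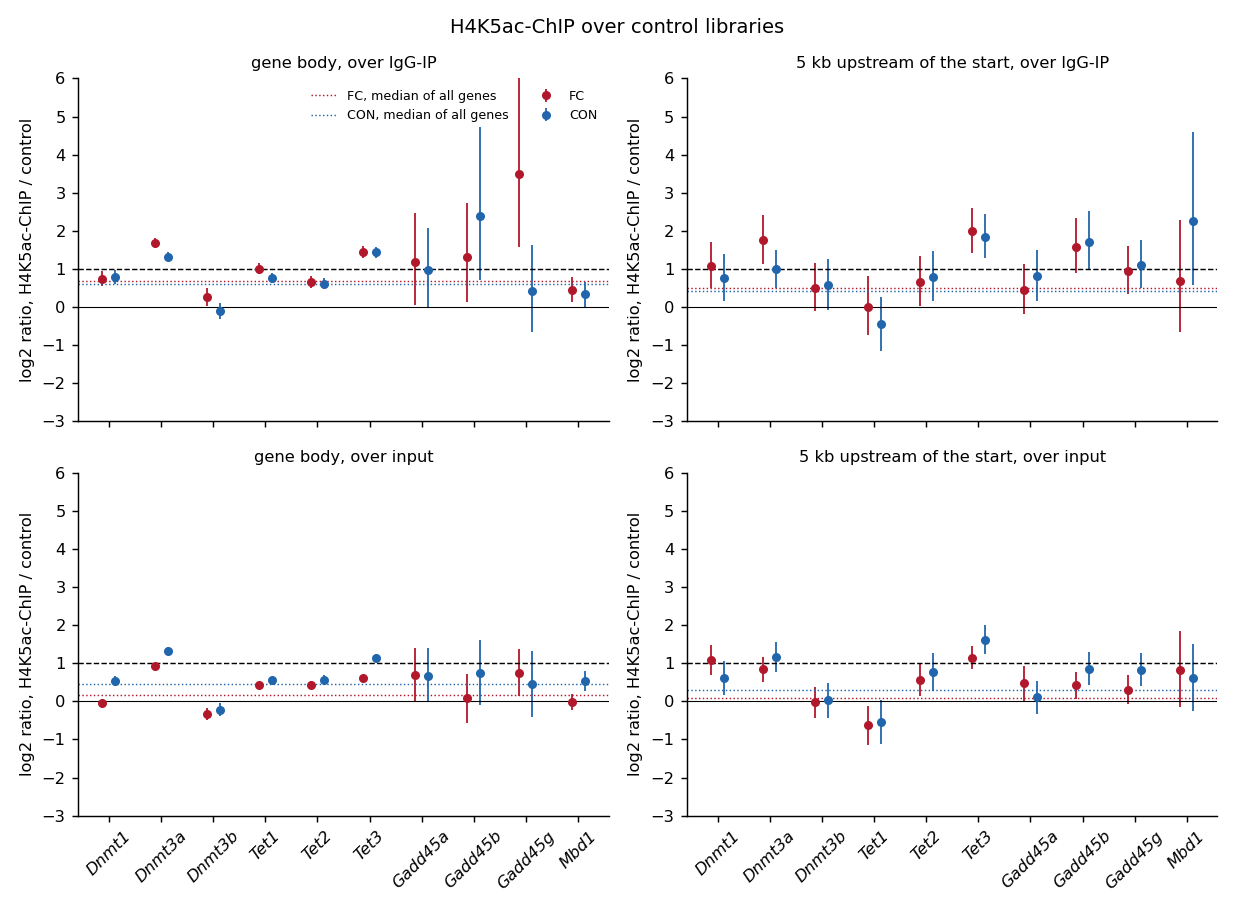
H4K5ac-ChIP relative to IgG-IP (top) and relative to input (bottom), as log2 ratios, for the gene body (left) and the 5 kb promoter (right), for FC (red) and CON (blue); points are single libraries, bars are exact binomial 95% intervals (that of Gadd45g reaches 6.58), dotted lines are medians of all genes and the dashed line marks 2-fold. Dnmt3a lies between 0.84 and 1.74 and Tet3 between 0.62 and 1.99 across the 4 panels, and Tet1 passes from 1.00 and 0.75 over its body to 0.01 and -0.46 over its promoter (over IgG-IP).

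Along the genes the reads were distributed in different ways. Over Dnmt3a and Tet3 H4K5ac was spread over the whole locus. Cut into 5 equal parts from start to end, Dnmt3a had the following levels. The H4K5ac-ChIP level was 1.17, 1.10, 1.28, 1.26 and 1.08 RPKM in FC and 0.98, 1.00, 1.07, 1.25 and 0.85 RPKM in CON, with 0.99 and 1.00 RPKM in the 5 kb beyond its end. Tet3, cut in the same way, had H4K5ac-ChIP levels of 0.99, 1.12, 0.98, 0.90 and 0.84 RPKM in FC and 1.00, 1.13, 0.95, 0.89 and 0.86 RPKM in CON, and of 1.18 and 1.06 RPKM in the 5 kb beyond its end. Over Dnmt1, Dnmt3b and Mbd1 the first of the 5 parts was the highest in FC, with 0.89 RPKM against 0.53 to 0.65 in the later parts of Dnmt1, 0.61 against 0.32 to 0.52 in those of Dnmt3b, and 0.77 against 0.47 to 0.74 in those of Mbd1. In CON the first part was highest in Dnmt1, at 0.85 RPKM, whereas in Dnmt3b it was below the middle part, 0.42 against 0.52 RPKM, and in Mbd1 it was close to the next to last, 0.73 against 0.74 RPKM. Tet2 was also highest in its first part and lowest in its last, 0.64 and 0.49 RPKM in FC and 0.69 and 0.48 RPKM in CON. Over input its first and last parts stood at 0.63 (0.40 to 0.86) and 0.30 (0.05 to 0.55) in FC, and at 0.88 (0.63 to 1.12) and 0.18 (-0.07 to 0.43) in CON, where the intervals did not overlap. The first part of Dnmt3b stood at -0.01 (-0.33 to 0.29) over input in FC, no higher than its middle part at 0.04. Over IgG-IP in FC the first part of Dnmt3b was its highest, at 0.80 (0.29 to 1.35). The first parts of Dnmt1 and Mbd1 stood at 0.37 and 0.66 over input in FC, above their later parts.

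Over Tet1 the marked part lay inside the gene, away from its start, in both groups. The first of its 5 parts stood at 0.42 RPKM in FC and 0.33 RPKM in CON, or 0.25 and 0.06 over IgG-IP and -0.13 and -0.24 over input. Its middle part stood at 0.95 and 0.89 RPKM, or 1.74 and 1.07 over IgG-IP and 0.75 and 1.05 over input. The 1 kb window with the most H4K5ac-ChIP reads lay 33 to 34 kb from the start in FC, with 56 reads (52 in CON), and 51 to 52 kb from it in CON, with 66 reads (42 in FC). The gene start held 22 (FC) and 20 (CON) H4K5ac-ChIP reads within 1 kb, against 7 and 6 IgG-IP reads and 31 and 21 input reads. The start of a further coding transcript 19.10 kb downstream held 26 and 25 reads, against 13 and 9 IgG-IP reads and 54 and 30 input reads. At 33.81 kb downstream, where the annotated transcript Tet1-002 without a coding sequence begins, 101 and 85 H4K5ac-ChIP reads lay within 1 kb, against 7 and 8 IgG-IP reads and 42 and 36 input reads. That is 2.73 (1.64 to 4.08) and 2.28 (1.24 to 3.54) over IgG-IP and 1.80 (1.26 to 2.35) and 1.22 (0.64 to 1.83) over input, and in FC a level above 98.4% of the starts of all genes. The 300 bases around the start of Tet1-002 held 6 CpG, the median of all gene starts.

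Dnmt3a has 12 annotated starts, and its CpG-rich ones differed in how many reads any library held. At the full-length coding start, whose sequence with 37 CpG is given above and whose 300 bases hold 51, there were 25 (FC) and 14 (CON) H4K5ac-ChIP reads, 1 and 2 IgG-IP reads and 6 and 6 input reads. The GC content of these 2 kb was 77.5%. The window shares 0.977 kb with that of the first start, and 21 of the 25 and 11 of the 14 H4K5ac-ChIP reads lie in the shared part, so that no level of its own can be given for this start. At the internal start there were 79 and 101 H4K5ac-ChIP reads, 8 and 12 IgG-IP reads and 38 and 31 input reads. H4K5ac-ChIP exceeded both controls there, by 2.18 (1.14 to 3.45) and 1.95 (1.08 to 2.95) over IgG-IP and 1.59 (1.01 to 2.19) and 1.69 (1.09 to 2.32) over input. The other 9 internal starts, with 1 to 7 CpG in 300 bases, ran from 0.36 to 2.92 in FC and from 0.58 to 2.38 in CON over IgG-IP, and from 0.38 to 1.39 and from 0.52 to 1.59 over input. Over IgG-IP the CpG-rich internal start thus lay within the range of the others, and over input it lay above them with an interval that overlapped that of the next highest. At the first start, with 2 CpG in 300 bases, there were 71 and 63 H4K5ac-ChIP reads, against 39 and 32 input reads. The CpG-rich start of Tet2, with 57 CpG, held 59 and 44 H4K5ac-ChIP reads, 9 and 7 IgG-IP reads and 34 and 21 input reads, or 1.59 (0.57 to 2.79) and 1.53 (0.37 to 2.92) over IgG-IP. Its level was above that of the Tet1 start, 0.933 against 0.348 RPKM in FC and 0.612 against 0.278 RPKM in CON. In the stretch given above upstream of the Tet2 start, however, H4K5ac-ChIP stood at 0 RPKM in FC and 0.111 RPKM in CON, counted by read midpoints. IgG-IP and input stood at 0 there in both groups, and the stretch given for Tet1 stood at 0 in all 6 libraries. The levels of the Tet2 and Tet1 starts thus come almost wholly from the remainder of their windows. Why so few reads lay in these stretches was not tested.

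**Figure D3:**
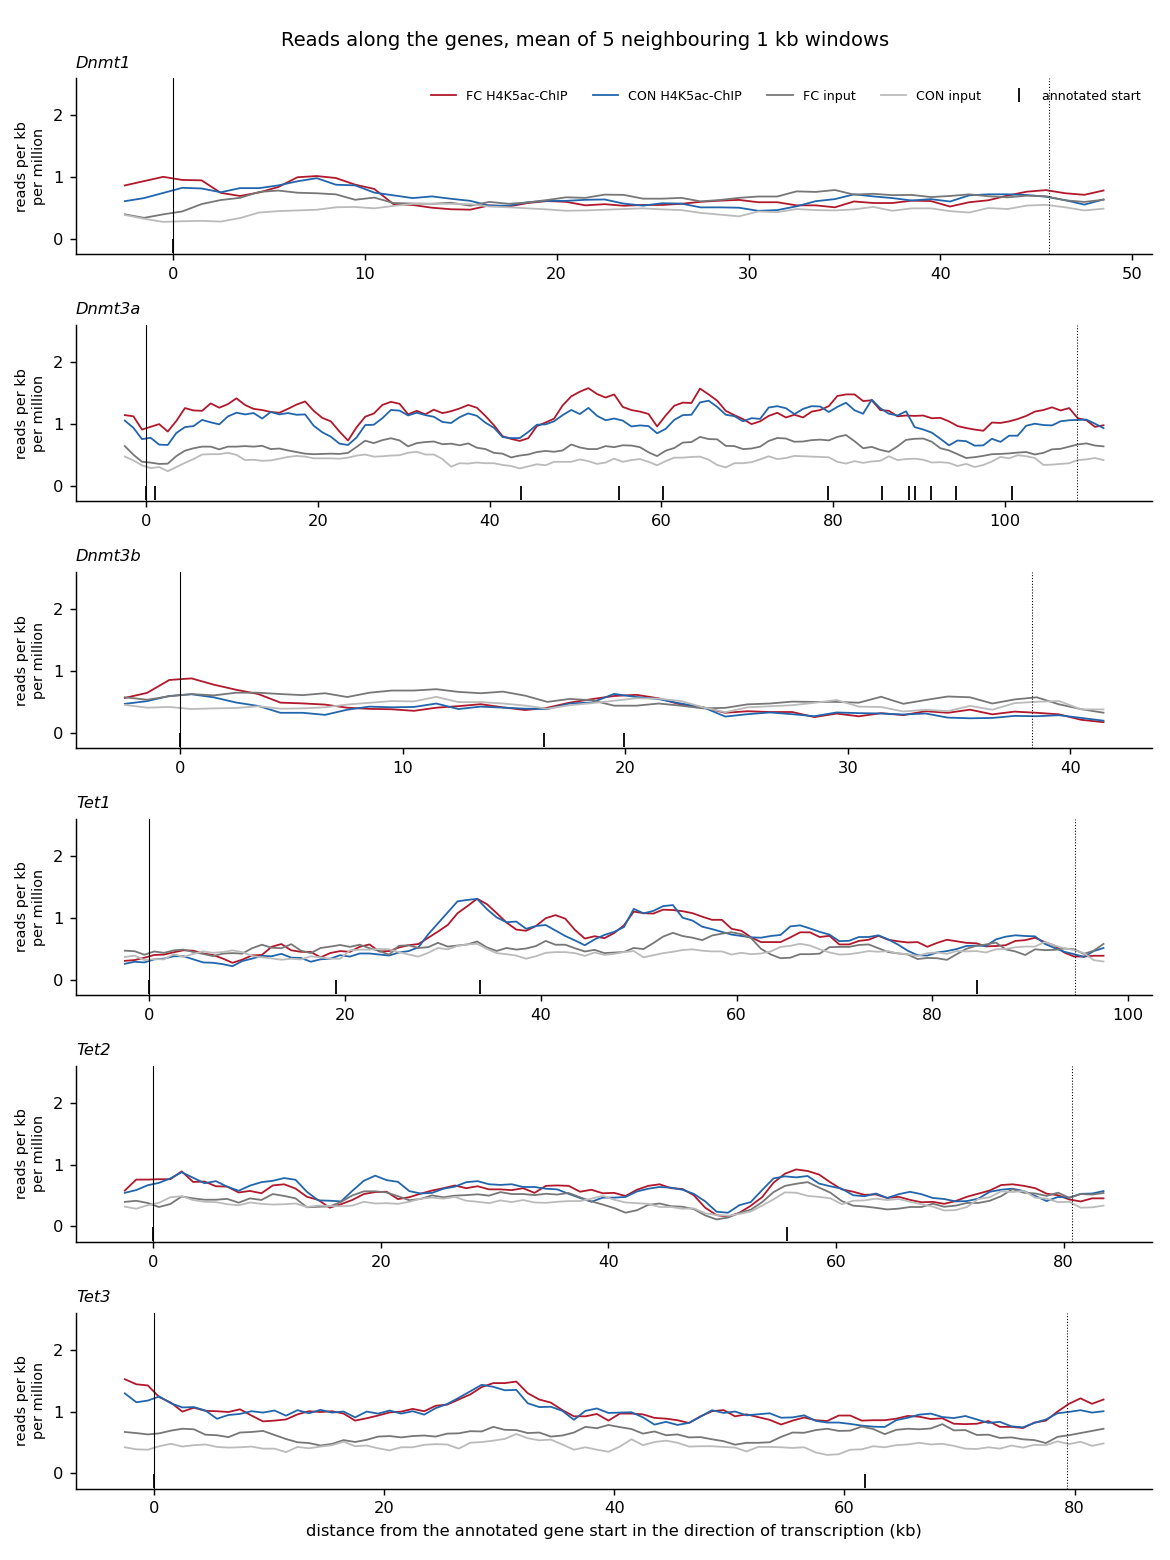
Reads per kilobase and 1000000 aligned reads along the methyltransferase and Tet genes, as the mean of 5 neighbouring 1 kb windows, against the distance from the annotated gene start (kb, in the direction of transcription); red and blue are H4K5ac-ChIP of FC and CON, dark and light grey are input of FC and CON, ticks are annotated starts, and the solid and dotted vertical lines are the gene start and end. H4K5ac-ChIP lies above input along all of Dnmt3a and Tet3. Along Dnmt3b it lies near or below input except around the start. The highest single window of Dnmt3b, 1 to 2 kb downstream, stands at 1.33 against 0.72 in FC and 0.89 against 0.62 in CON. In Tet1 H4K5ac-ChIP rises above input inside the gene, with the highest single windows at 33 to 34 kb in FC and 51 to 52 kb in CON.

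The comparison of FC with CON asks whether fear conditioning went with a change of H4K5ac on these genes. Over the gene body the log2 ratio of FC to CON H4K5ac-ChIP reads was 0.19 (0.13 to 0.25) for Dnmt3a, 0.19 (0.01 to 0.37) for Dnmt3b, 0.20 (-0.04 to 0.44) for Mbd1 and 0.07 (-0.02 to 0.16) for Tet1. It was 0.00 (-0.08 to 0.08) for Tet3, -0.05 (-0.17 to 0.08) for Dnmt1 and -0.05 (-0.15 to 0.06) for Tet2. These 7 long genes thus differed by less than 1.5-fold (0.58 on the log2 scale), with intervals that hold no change of that size. Their input reads were higher in FC, and less the input ratio all 7 were below 0, from -0.12 in Dnmt3b and -0.40 in Dnmt3a to -0.54 in Mbd1 and -0.58 in Dnmt1. The IgG-IP ratio of FC to CON was -0.16 in Dnmt3a and -0.18 in Dnmt3b, so that less this ratio both stood further above 0, Dnmt3b at 0.37. The median of the 10 was 0.13, against 0.04 for all genes, and Dnmt3a was 0.07 above the median of GC-matched genes.

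Gadd45g was the only gene body past 1.5-fold, and none was past it in the other direction, against 4.53% and 1.96% of all genes. Its 49 reads in FC and 29 in CON gave 0.94 (0.25 to 1.66), and its input reads, 42 and 21, differed in the same direction by 0.64 (-0.15 to 1.47). Less the input ratio no gene body was 1.5-fold higher in FC, and Gadd45g stood at 0.31. Gadd45b stood at 0.35 (-0.36 to 1.06), and at -0.67 less the input ratio, past 1.5-fold in the other direction, and Gadd45a at -0.08 (-0.73 to 0.56).

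Over the promoter none of the 10 genes was 1.5-fold higher or lower in FC, against 5.52% and 3.82% of all promoters. The ratios ran from -0.38 (-1.25 to 0.47) in Mbd1 to 0.50 (0.13 to 0.88) in Dnmt1, with 137 reads in FC and 110 in CON, where input differed by 0.03 (-0.44 to 0.49). The median was 0.16, against 0.05 for all promoters, but -0.07 less the IgG-IP ratio and -0.14 less the input ratio. Less the IgG-IP ratio Dnmt3a was past 1.5-fold, at 0.76. At the TSS region the level was higher in FC for 9 of 10 genes, all but Mbd1 at -0.14 (-0.67 to 0.39). All genes leaned the same way there, with 19485 of 30568 above 0 and a median of 0.14, against 0.46 for the 10 genes. Past 1.5-fold were Dnmt1 at 0.62 (0.12 to 1.13), Tet2 at 0.61 (0.02 to 1.21) and Gadd45a at 0.67 (-0.04 to 1.40), against 14.1% of all genes, and none was lower by as much, against 5.93%. These 3 rest on 81 and 60, 59 and 44, and 42 and 30 H4K5ac-ChIP reads. With 1 read per position and strand, less the median of all genes, or less that of GC-matched genes, none of the 10 passed 1.5-fold. Less the input ratio Gadd45a was at 0.87, Tet2 at 0.28 and Dnmt1 at -0.017. Less the IgG-IP ratio, which 4 genes had enough reads for, Dnmt1 was at -0.56, Gadd45a at 0.23 and Tet3 at -0.042, whereas Dnmt3b was at 1.44.

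**Figure D4:**
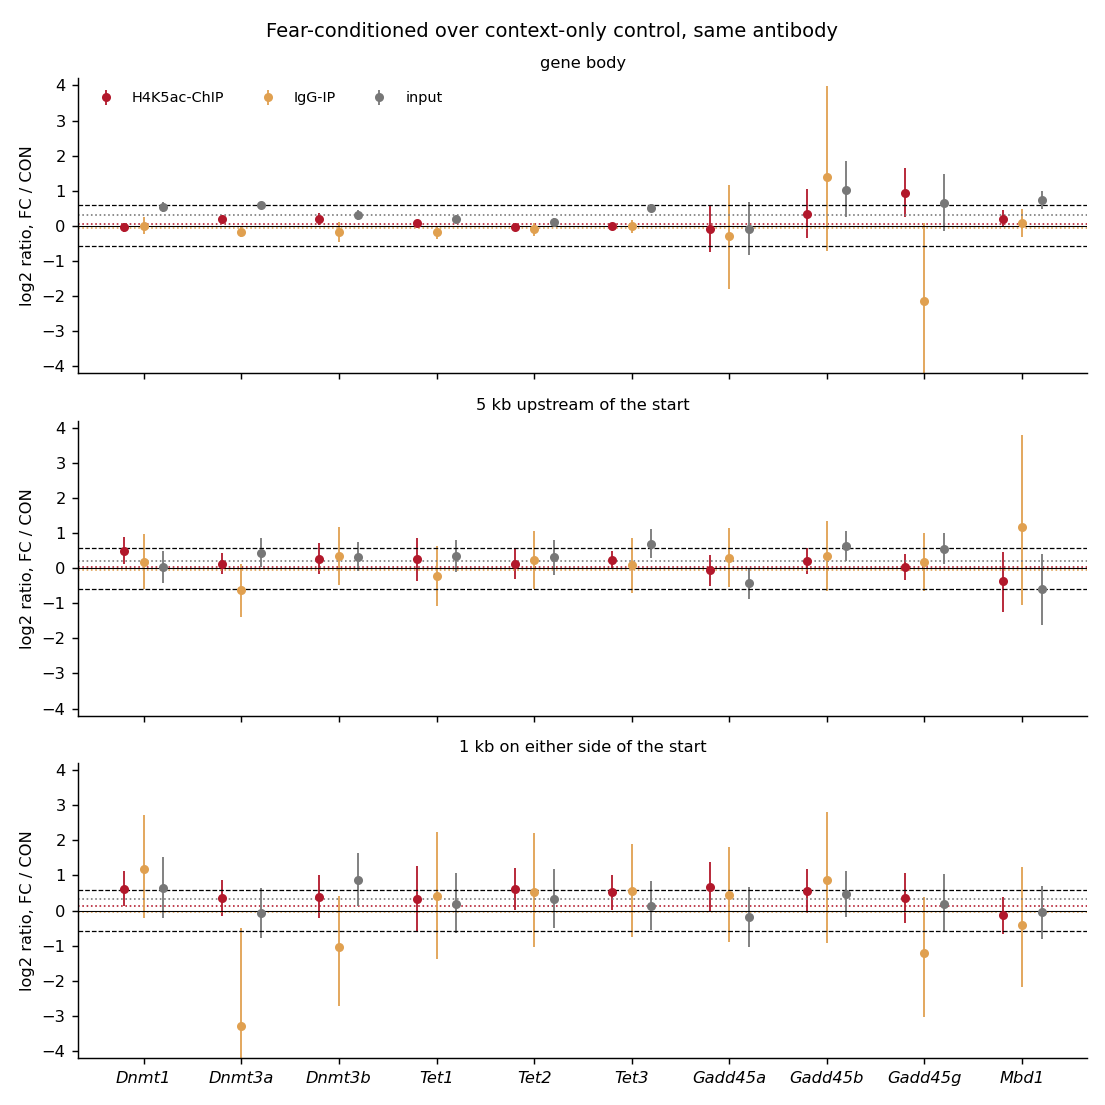
Log2 ratio of FC over CON for H4K5ac-ChIP (red), IgG-IP (orange) and input (grey) over the gene body, the promoter and the TSS region; bars are exact binomial 95% intervals, some of which run off the panel, dotted lines are medians of all genes and dashed lines mark 1.5-fold. The red points of the 7 long genes lie between -0.05 and 0.20 over the gene body, where the input of the same genes lies between 0.11 and 0.74.

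A list of 38 other genes of the pathway is given for comparison. It was made of genes grouped as accessory to methyltransferases (among them Mat2a, Mat2b, Ahcy and Trdmt1), genes grouped as readers of methylated or unmethylated CpG, and genes of deamination and base excision repair. Over the gene body 17 of 38 were at least 2-fold over IgG-IP in FC and 13 of 38 in CON, against 33.6% and 25.5% of all genes, with medians of 0.94 and 0.83 against 0.69 and 0.59. Over input the counts were 1 and 6 of 38, against 5.08% and 15.3%. Highest over IgG-IP in FC was Cxxc5, a CXXC-domain reader of unmethylated CpG, at 2.02 (1.79 to 2.26). Next came Dmap1, a partner of Dnmt1, at 1.86 (1.33 to 2.43), and the DNA glycosylase Neil1 at 1.77 (1.25 to 2.33). The same genes stood at 1.98, 0.79 and 1.44 in CON. Lowest were the chromatin remodeller Hells at -0.70 (-0.92 to -0.47), the cytidine deaminase Apobec1 at -0.37 (-0.65 to -0.07) and the glycosylase Neil3 at -0.21 (-0.41 to -0.01), which stood at -0.68, -0.27 and -0.38 in CON. Of the 38, none was 1.5-fold higher or lower in FC over the gene body, against 4.53% and 1.96% of all genes, and 0 were higher and 1 lower over the promoter, against 5.52% and 3.82%. Over the TSS region 6 were higher and none lower, against 14.1% and 5.93%, with a median ratio of FC to CON of 0.33 against 0.14.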

How the data were processed

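H4K5ac-ChIP, IgG-IP and input DNA of mouse hippocampus was sequenced by the authors on a SOLiD system and aligned to mm9 with Bioscope. The deposited files list 1 aligned read per line (spans of 25 to 50 bp), and the deposited score of each line is the mapping quality given by the authors' alignment, from 4 to 100; it was used only in an alternative, and all reads counted equally.

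Genes were those of the GENCODE M1 annotation on the same build (NCBIM37), 37273 outside the mitochondrial genome. A read was counted in every region it overlapped by at least 1 bp. In the 1 kb windows along the genes and the 250 bp bins around the starts it was counted by its midpoint. RPKM has exact Poisson 95% intervals, and log2 ratios, scaled by total aligned reads, have exact binomial (Clopper-Pearson) intervals on the reads of both libraries; an interval compares libraries, not conditions. Ratios needed at least 20 reads in both libraries together. GC-matched medians used steps of 1% GC with at least 50 genes. Counting, ratios and GC matching were tested on simulated data. With 1 library per group and antibody no test was made, and samples were grouped by their labels.

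IgG-IP is the main control, as in the study. Alternatives were 1 read per position and strand, a mapping quality of at least 20, read midpoints, input as the control, a 2 kb promoter, the gene body beyond 2 kb, protein-coding genes as background, and FC over CON less the median of all genes, of GC-matched genes, or less the IgG-IP or input ratio; GC matching of the ratios over IgG-IP and input was chosen after seeing the data. All 10 genes are named; of the other pathway genes, the 3 highest and 3 lowest gene body ratios over IgG-IP in FC; markers and overlapping genes are named where a value turns on them. The genes and lists were chosen with earlier results of these data known. Python 3.11.15 was used, with pandas 2.3.3, SciPy 1.17.1, NumPy 2.4.6 and matplotlib 3.10.9.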

Additional observations from a re-analysis of the deposited data

Results flagged for a closer look

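In 6 cases the ratio of H4K5ac-ChIP to a control library had one sign in FC and the other in CON. No difference between the groups was tested, since each rests on 1 library per group. Over the gene body of Dnmt3b H4K5ac-ChIP stood at 0.26 (log2, 0.02 to 0.50) over IgG-IP in FC and at -0.11 (-0.32 to 0.11) in CON. Over the gene bodies of Dnmt1 and Mbd1 the ratio over input was -0.053 (-0.17 to 0.07) and -0.013 (-0.23 to 0.20) in FC, against 0.53 (0.39 to 0.66) and 0.52 (0.26 to 0.79) in CON. Beside these last values stand the input libraries themselves, in which FC exceeded CON by 0.53 in Dnmt1 and 0.74 in Mbd1, and the median of all genes, which over input was 0.16 in FC and 0.45 in CON.

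The other cases lie close to 0 or have wide intervals. Over the promoter of Tet1 H4K5ac-ChIP stood at 0.0063 (-0.75 to 0.81) over IgG-IP in FC and at -0.46 (-1.16 to 0.26) in CON. Over the promoter of Dnmt3b the ratio over input was -0.027 (-0.43 to 0.37) and 0.034 (-0.42 to 0.49). At the TSS region of Tet1 it was 0.036 (-0.82 to 0.87) and -0.09 (-1.05 to 0.87).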

How the results depend on the processing

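No paired analysis was possible because each group has 1 library per antibody. Counts of members past 2-fold over IgG-IP moved with input as the control (gene body in FC 0, promoter 2 in FC and 2 in CON, TSS region in CON 3), with a 2 kb promoter (FC 8, and CON 6) and with the gene body beyond 2 kb (FC 3, on the 7 genes with enough reads there). Less the median of GC-matched genes, an alternative chosen after seeing the data, they were 1 and 1 (gene body in FC and CON), 0 and 1 (promoter) and 1 and 0 (TSS region). For FC over CON, the gene body median was -0.28 less the input ratio, and the promoter median -0.07 less the IgG-IP ratio and -0.14 less the input ratio. The count higher in FC over the gene body was 0 of 10 less the input ratio, where 1 gene was lower (Gadd45b). Less the IgG-IP ratio and beyond 2 kb it was 0 of 7 genes, without the 3 Gadd45 genes: these had too few IgG-IP reads, Gadd45a and Gadd45b too few reads beyond 2 kb, and Gadd45g ends before 2 kb, so that it could not be judged there. Over the promoter 1 of 9 was higher less the IgG-IP ratio. Over the TSS region 0 were higher with 1 read per position and strand, 0 less the GC-matched median, 0 less the median of all genes, 1 of 4 less the IgG-IP ratio and 1 less the input ratio. Of ratios that were at least 2-fold over IgG-IP, GC matching changed the sign of 6: Gadd45b in FC over the gene body (-0.26), Gadd45g in CON over the promoter (-0.0037) and, over the TSS region in FC, Dnmt1 (-0.20), Tet2 (-0.13), Tet3 (-0.27) and Gadd45b (-0.13). Of ratios past 1.5-fold between FC and CON, that of Dnmt1 at the TSS region changed sign less the IgG-IP ratio (-0.56) and less the input ratio (-0.017). The causes were not tested. Of 333 single ratios over IgG-IP with enough reads under the alternatives 30 changed sign, whatever their size, 23 of them under GC matching and 6 with input as the control. Of 217 ratios of FC to CON 31 did, 17 less the input ratio and 8 less the IgG-IP ratio. By size, 259 and 194 values stayed within the interval of the ratio as reported. Depth limits the Gadd45 bodies, the TSS regions and the Mbd1 promoter, with 1 to 14 IgG-IP reads each.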
